A study of Mus musculus with 4 samples.

Results

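The amyloid precursor family and gamma-secretase were examined as 9 genes in RNA bound to tagged astrocyte ribosomes from brains of mice on cuprizone and on normal chow. The members were taken by gene symbol from 55471 counted genes: the precursors App, Aplp1 and Aplp2, the beta-secretase Bace1, the gamma-secretase subunits Psen2, Ncstn, Aph1a and Psenen, and the prion protein gene Prnp. All 9 passed the filter on low counts and were among the 15816 genes tested. There were 2 cuprizone and 2 mock libraries. The cuprizone mice were males of 8 to 9 weeks given chow with 0.2% cuprizone by weight, a copper chelator that kills oligodendrocytes and strips myelin, and the mock mice were of matched age on normal chow. Mice of both groups carried a GFAP-Cre transgene, in which the GFAP promoter drives the recombinase (GFAP-Cre+/-), and were heterozygous for an Rpl22 allele whose ribosomal protein is HA-tagged once Cre has acted (Rpl22HA/wt), so the pull-down takes ribosomes from any cell in which Cre had been active. The design text names dissected corpus callosum as the tissue, while the sample labels say brain. The labels place all 4 libraries at 3 weeks and in batch 1, whereas the design text gives 5, 5.5 and 7 weeks, and the time is given here as labelled.

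The precursors are membrane proteins that are first cut outside the membrane by an alpha-secretase or by the beta-secretase BACE1. Gamma-secretase, a complex of a presenilin, nicastrin, APH-1 and PEN-2, then cuts the remaining stub inside the membrane, and from APP the beta and gamma cuts together release amyloid-beta. APP, APLP2 and the prion protein bind copper. In demyelinated white matter APP protein is known as a marker of damaged axons, where it piles up when transport fails, while astrocytes, oligodendrocytes and neurons all express the gene. The 3 precursors share a short cytoplasmic tail that binds the adaptor proteins Fe65 and X11.

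The end of the coding sequence shows how the 3 genes relate and how far apart their reads are. The lines give 60 coding bases of each gene, 5′ to 3′ on the coding strand, from GENCODE M21 transcripts on GRCm38, lined up without gaps. Capitals mark the 29 positions that are identical in all 3 genes.
App, exon 18, chr16:84955337-84955396, minus strand: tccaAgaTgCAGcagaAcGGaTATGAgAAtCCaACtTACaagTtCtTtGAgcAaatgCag
Aplp1, exon 17, chr7:30435296-30435355, minus strand: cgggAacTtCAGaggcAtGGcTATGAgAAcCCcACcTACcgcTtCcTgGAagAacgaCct
Aplp2, exon 17, chr9:31150877-31150936, minus strand: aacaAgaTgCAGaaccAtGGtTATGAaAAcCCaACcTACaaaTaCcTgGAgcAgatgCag

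In this stretch Aplp2 matched App at 45 of 60 bases and Aplp1 matched it at 33. Over whole protein-coding transcripts, the longest run of identical bases was 24 between App and Aplp2 and 14 between App and Aplp1. Bace1 and Bace2 shared at most 15 bases, and Aph1a shared at most 16 with Aph1b or Aph1c. Aph1b and Aph1c, which are not members, shared a run of 341 bases, so their separate counts are uncertain. How the counting treated reads that map to several genes is not stated in the labels.

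The 250 bases before the start sites of the 3 precursors are shown as a description, and their bearing on the levels was not tested. They come from RefSeq on GRCm38.p6, 5′ to 3′ on the gene's strand, with capitals for each GC box, searched as GGGCGG on both strands.
App, chr16:85173708-85173957, minus strand: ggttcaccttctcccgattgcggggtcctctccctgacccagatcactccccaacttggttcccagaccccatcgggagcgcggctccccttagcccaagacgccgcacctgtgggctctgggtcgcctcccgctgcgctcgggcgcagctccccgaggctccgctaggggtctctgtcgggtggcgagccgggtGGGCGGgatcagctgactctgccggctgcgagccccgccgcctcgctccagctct
Aplp1, chr7:30445583-30445832, minus strand: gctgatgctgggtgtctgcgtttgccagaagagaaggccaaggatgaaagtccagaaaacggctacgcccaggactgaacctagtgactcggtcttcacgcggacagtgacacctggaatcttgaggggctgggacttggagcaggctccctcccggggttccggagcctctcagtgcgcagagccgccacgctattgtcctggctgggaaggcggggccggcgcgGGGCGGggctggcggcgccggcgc
Aplp2, chr9:31211849-31212098, minus strand: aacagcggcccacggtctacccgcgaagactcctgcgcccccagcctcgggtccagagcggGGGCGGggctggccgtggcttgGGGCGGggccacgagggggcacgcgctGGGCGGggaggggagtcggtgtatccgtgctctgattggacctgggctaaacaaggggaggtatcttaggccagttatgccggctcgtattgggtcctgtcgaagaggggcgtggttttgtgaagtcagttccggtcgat

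These windows held 70.8% G and C for App, 66.0% for Aplp1 and 66.4% for Aplp2, against a median of 52.4% over all promoter windows of that length. App and Aplp1 had 1 GC box each and Aplp2 had 3. Of the 8 members with a promoter entry, 6 had a GC box in at least 1 window, and 32.7% of all 32851 windows held a GC box. The counts of members are by gene, over 10 windows in all, while the shares are by window, so they are not like measures. CCAAT, searched on both strands, occurred for 4 of the 8 members and in 33.8% of all windows, and TATAAA for 1 of the 8, Prnp, and in 12.4% of all windows. A match describes letters in the window and not a bound site.

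Library totals ran from 21209517 to 23822620 counts. Levels are CPM, the counts of a gene scaled to the library total. In these libraries 3 counts, the most that a count of 0 allows, were worth 0.126 to 0.141 CPM. Markers of the labelled cell type were present, with all 12 astrocyte markers counted in every library. All 12 neuron and all 10 oligodendrocyte markers were also counted in every library. Each of these lists held a larger share of counts than the astrocyte list in every library, so the presence of markers does not show enrichment of astrocyte RNA. Cuprizone replicate 2 stood apart in cerebellar granule cell markers, which made up 0.147% of its counts, against 0.0303% in cuprizone replicate 1 and 0.0195% and 0.0186% in the mock libraries. Without cuprizone replicate 2 the median log2 fold of the members was -0.61, beside -0.53 with it, and the same 5 members had an unadjusted p under 0.05. The labels call the libraries biological replicates without saying whether each came from 1 animal, so the p-values reflect only how these libraries spread, which may be technical. In bulk pull-downs, fewer cells of a type and less RNA per cell cannot be told apart.

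All 9 members had negative folds, and in 7 of them both cuprizone libraries lay below both mock libraries. The median log2 fold of the members, cuprizone over mock, was -0.53, against 0.00 over all tested genes. The edgeR quasi-likelihood test, adjusted over every tested gene, called 0 of the 9 at 0.05, where it called 0.0822% of all genes, 0.0506% as lower. At an unadjusted p under 0.05, 5 members lay lower (App, Aplp1, Aplp2, Ncstn and Prnp), against 7.04% of all tested genes, and 0 lay higher, against 5.73%. DESeq2 called the same 5 after adjustment, against 2.88% of genes called lower, and limma-voom called Aplp2 alone, against 0.24%. Both cuprizone libraries lay below both mock libraries for 18.9% of all tested genes, and above them for 25.7%. Every member averaged at least 5 CPM. Among the 10994 tested genes at that level, edgeR called 0.118%, of which lower 0.0728%, and at an unadjusted p 8.74% lay lower and 6.95% higher. DESeq2 called 3.76% of them lower and limma-voom 0.346%, and both cuprizone libraries lay below both mock libraries for 19.8% and above them for 28.6%.

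**Figure D1:**
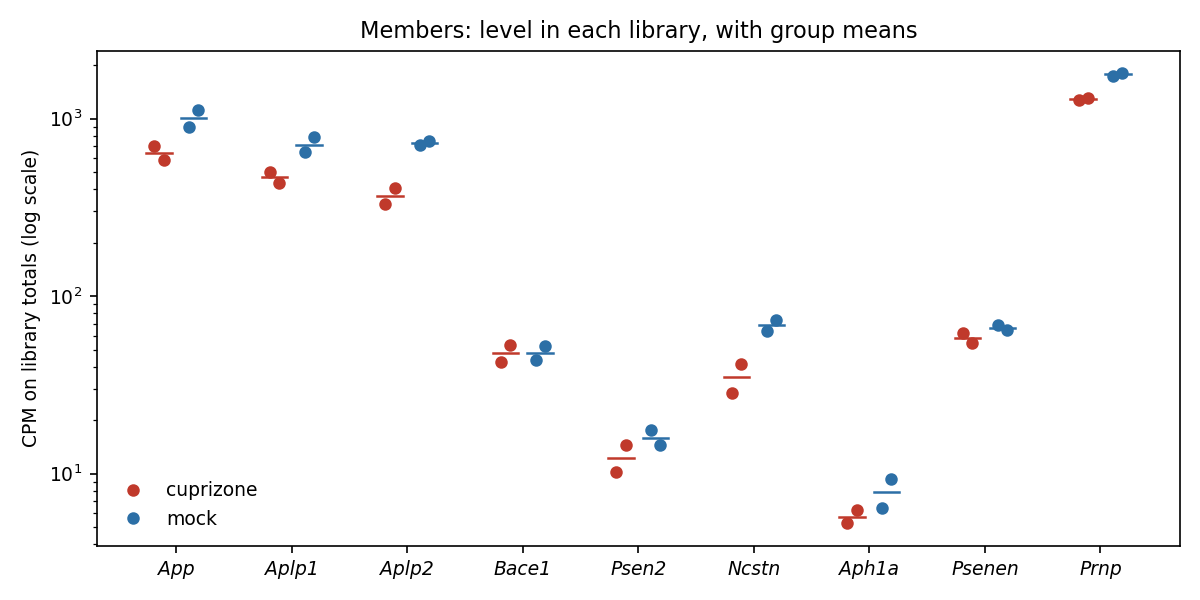
Level of each member in each library, in CPM on a log axis, with red points for cuprizone, blue points for mock and a bar for each group's mean. The groups are apart in App, Aplp1, Aplp2, Ncstn and Prnp and narrowly apart in Aph1a and Psenen, and they overlap in Bace1 and Psen2.

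App (ENSMUSG00000022892, chromosome 16, 84949685 to 85173766), the source of amyloid-beta, had 700.4 and 588.1 CPM in the cuprizone libraries, against 900.6 and 1117 CPM in the mock libraries. Both cuprizone values lay below both mock values. The means were 644.3 CPM ± 79.4 in cuprizone and 1009 CPM ± 153 in mock libraries (SD, n = 2 each), and the log2 fold was -0.72 (SE 0.16). The edgeR adjusted p was 0.194, and over 12 alternatives it ran from 0.0026 with DESeq2 to 0.539.

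Aplp1 (ENSMUSG00000006651, chromosome 7, 30434982 to 30445535), a paralog that lacks the amyloid-beta sequence and serves cell adhesion, had 499.3 and 433.1 CPM in the cuprizone libraries, against 645.9 and 782.8 CPM in the mock libraries. It stood in the same order as App: cuprizone replicate 2 was lowest and mock replicate 2 highest. The log2 fold was -0.69 (SE 0.16), with an edgeR adjusted p of 0.194. Across the 4 libraries the log2 levels of Aplp1, taken about their own mean, differed from those of App by a root mean square of 0.0257, which ranked 2 in closeness among the 4252 genes of at least 50 CPM. Among the closest genes that are not members were Scn2a, a sodium channel subunit of neurons (0.0248), Kcnj9, a potassium channel subunit (0.0467), Syt13, a synaptotagmin (0.0511), and Vstm2a, a secreted immunoglobulin-domain protein (0.0525). With only 4 libraries this closeness is a description of these libraries.

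Aplp2 (ENSMUSG00000031996, chromosome 9, 31149557 to 31211815), the paralog expressed most widely across tissues, had 331.8 and 404.5 CPM in the cuprizone libraries, against 710.0 and 751.3 CPM in the mock libraries. Here cuprizone replicate 1, not 2, was the lowest, and the gap between the groups was wider than the spread within either. The log2 fold was -1.06 (SE 0.16), the most negative of the 9, with an edgeR adjusted p of 0.111. It was called in 5 of the 12 alternatives, with adjusted p from 1.61e-07 with DESeq2 to 0.368 without mock replicate 2.

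Summed over App, Aplp1 and Aplp2, the precursors stood at 1532 and 1426 CPM in the cuprizone libraries and at 2256 and 2651 CPM in the mock libraries. The cuprizone mean was 0.603 of the mock mean. The shares of the 3 genes in the family differed little in size between the groups. App took 45.7% and 41.3% of the family's counts in cuprizone and 39.9% and 42.1% in mock libraries, and Aplp1 took 32.6% and 30.4% in cuprizone and 28.6% and 29.5% in mock libraries. The groups overlapped for App, and for Aplp1 both cuprizone shares lay above both mock shares. Aplp2 took 21.7% and 28.4% in cuprizone and 31.5% and 28.3% in mock libraries, with overlap.

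Bace1 (ENSMUSG00000032086, chromosome 9, 45838580 to 45864399), the protease that makes the beta cut and also cuts neuregulin in myelination of peripheral nerve, had 42.4 and 53.1 CPM in the cuprizone libraries, against 43.9 and 52.1 CPM in the mock libraries. The groups overlapped fully. The log2 fold was -0.08 (SE 0.24, edgeR adjusted p = 0.96), and its sign turned when cuprizone replicate 1 (0.084) or mock replicate 2 (0.075) was left out. Of the 6348 exonic bases of Bace1, 975 overlap exons of Rnf214 on the other strand. Rnf214 had 821 to 1023 counts in a library and Bace1 925 to 1266, and since the strand setting of the counting is not given, reads of this overlap cannot be assigned.

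Among the gamma-secretase subunits, Ncstn (ENSMUSG00000003458, chromosome 1, 172066013 to 172082795), which encodes nicastrin, the subunit that admits substrates, had 28.6 and 41.4 CPM in the cuprizone libraries, against 63.9 and 73.2 CPM in the mock libraries. Both cuprizone libraries lay below both mock libraries. The log2 fold was -1.04 (SE 0.26, edgeR adjusted p = 0.218), with -1.34 when cuprizone replicate 2 was left out and -0.79 when cuprizone replicate 1 was. Exons of Copa overlap 195 of its 3975 exonic bases on the other strand. Copa had 1774 to 4093 counts in a library and Ncstn 625 to 1552, and reads of this overlap cannot be assigned either.

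Psenen (ENSMUSG00000036835, chromosome 7, 30561863 to 30563627), which encodes the small subunit PEN-2, had 61.8 and 54.7 CPM in the cuprizone libraries, against 68.8 and 64.1 CPM in the mock libraries. The groups were apart by less than the spread within either. The log2 fold was -0.26 (SE 0.20, edgeR adjusted p = 0.669).

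Psen2 (ENSMUSG00000010609, chromosome 1, 180227004 to 180263438), 1 of the catalytic presenilins, had 10.2 and 14.4 CPM in the cuprizone libraries, against 17.6 and 14.4 CPM in the mock libraries. Its groups overlapped, by a narrow margin between cuprizone replicate 2 and mock replicate 2, and the log2 fold was -0.44 (SE 0.37, edgeR adjusted p = 0.713). Aph1a (ENSMUSG00000015750, chromosome 3, 95893969 to 95898288), a scaffold subunit, was the least abundant, with 5.27 and 6.21 CPM in the cuprizone libraries, against 6.38 and 9.34 CPM in the mock libraries. Both cuprizone values lay below both mock values, with a log2 fold close in size to its error, at -0.52 (SE 0.48, edgeR adjusted p = 0.747). Exons of Car14 on the other strand overlap 445 of its 3450 exonic bases. Car14 had 501 to 873 counts in a library and Aph1a 115 to 198, and reads of this overlap too cannot be assigned.

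The 4 subunits together stood at 105.9 and 116.8 CPM in cuprizone and 156.7 and 161.0 CPM in mock libraries. Ncstn took 27.0% and 35.4% of these counts in cuprizone and 40.8% and 45.5% in mock libraries, with no overlap between the groups. Psenen took 58.4% and 46.9% in cuprizone and 43.9% and 39.8% in mock libraries. Ncstn thus took a smaller part and Psenen a larger part of these counts in the cuprizone libraries than in the mock libraries.

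Prnp (ENSMUSG00000079037, chromosome 2, 131909928 to 131938429) encodes the prion protein, a copper-binding protein of the cell surface that is known to maintain myelin of peripheral nerve. It had 1279 and 1310 CPM in the cuprizone libraries, against 1749 and 1801 CPM in the mock libraries. The replicates lay close together within each group, and the groups were far apart relative to that spread. The means were 1294 CPM ± 21.96 in cuprizone and 1775 CPM ± 36.9 in mock libraries (SD, n = 2 each), and the log2 fold was -0.53 (SE 0.12) with an edgeR adjusted p of 0.192. Its fold moved little when 1 library was left out, from -0.55 to -0.48.

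**Figure D2:**
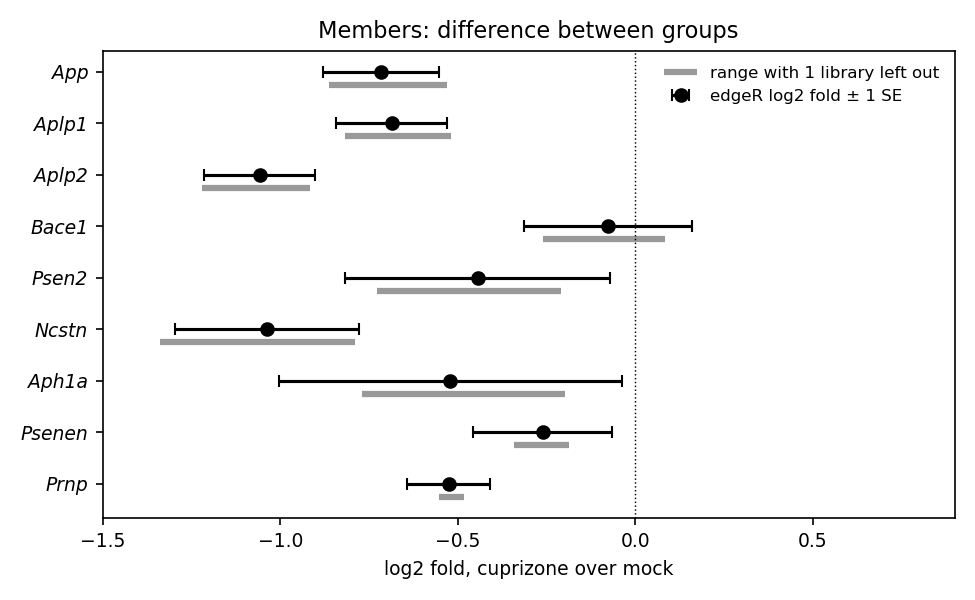
Log2 fold of each member, cuprizone over mock, with black points and bars for the edgeR estimate ± 1 SE and grey bars for the range over the 4 fits with 1 library left out. Aplp2 and Ncstn lie near -1, App, Aplp1 and Prnp between -0.72 and -0.53, and only the range of Bace1 spans 0.

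Per kilobase of exonic length, Prnp had the highest level of the members, with a mean of 552 CPM per kb in cuprizone and 758 in mock libraries. Aplp1 followed at 155 in cuprizone and 237 in mock libraries, then Aplp2 at 62.7 and 124, App at 49.6 and 77.6, and Psenen at 45.7 and 52.1 CPM per kb, each time cuprizone and then mock. Ncstn, Bace1, Psen2 and Aph1a lay lower, between 1.66 and 8.81 in cuprizone and between 2.28 and 17.2 CPM per kb in mock libraries. On this scale the order of the 9 means was the same in both groups. In the cuprizone libraries, App (53.9 and 45.3 CPM per kb) overlapped Psenen (48.5 and 42.9) and Ncstn (7.20 and 10.4) overlapped Bace1 (6.67 and 8.37), so these neighbours did not differ beyond their spread. Per kilobase of coding length App ranked 2 in both groups rather than 4, since its annotated exons total 12996 bases for 2310 coding bases. The order on that scale differed between the groups. Aplp2 ranked 5 in cuprizone and 4 in mock libraries, Psenen 4 and 5, Bace1 6 and 7, and Ncstn 7 and 6.

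Genes of like size had median folds nearer 0. For tested genes whose coding length was within 25% of that of App, the median log2 fold was 0.13, over 3076 genes, and the corresponding medians were 0.10 for Aplp1, 0.13 for Aplp2 and 0.11 for Ncstn. For Prnp, with its shorter coding sequence, the median was -0.10 over 2390 genes. For Psenen, the shortest member, it was -0.18 over 469 genes, beside the member's own -0.26.

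Of 63 other genes that act on or with the precursors, in 9 lists by role, 61 could be tested, and edgeR called 0 with adjusted p-values, while 18 lay lower and 1 higher at an unadjusted p under 0.05. After adjustment DESeq2 called 12 lower and 0 higher, against 2.88% of all tested genes called lower. The limma-voom fit called 1 lower, against 0.24% of all tested genes. The median log2 fold was -0.43, with 50 negative and 11 positive folds, and both cuprizone libraries lay below both mock libraries in 27 of the 61 and above them in 5. Over all tested genes the shares were 18.9% below and 25.7% above, and at an unadjusted p under 0.05 they were 7.04% lower and 5.73% higher.

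**Figure D3:**
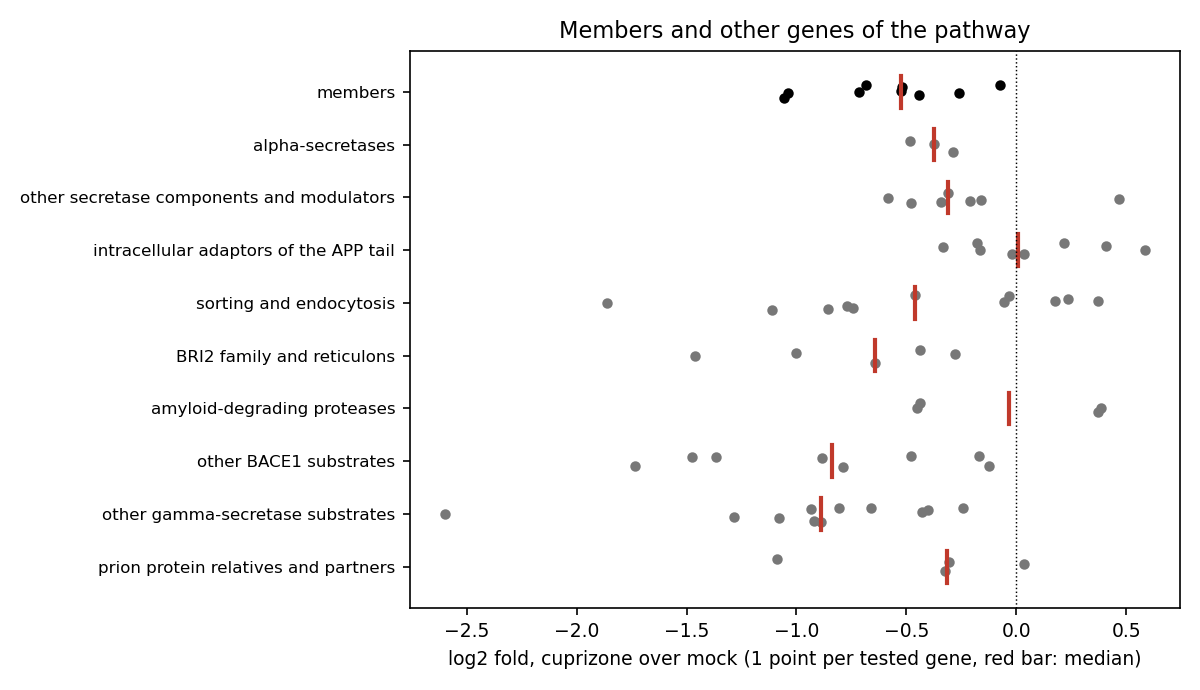
Log2 folds, cuprizone over mock, of the members and of the tested genes in 9 lists by role, 1 point a gene, with a red bar at each list's median. The medians of the BACE1 and gamma-secretase substrates lie at -0.84 and -0.89, and those of the tail adaptors and the amyloid-degrading proteases at 0.01 and -0.03.

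The alpha-secretases, which cut APP within the amyloid-beta sequence, had overlapping groups in all 3 genes. Adam10, the main alpha-secretase of neurons, had 41.8 and 36.2 CPM in the cuprizone libraries, against 38.7 and 52.1 CPM in the mock libraries, a log2 fold of -0.29 (SE 0.25). Adam17 had a log2 fold of -0.48 (SE 1.13) and varied too widely to place, with 0.641 and 11.2 CPM in cuprizone and 5.07 and 10.8 CPM in mock libraries. Among the other secretase components and modulators, with a median of -0.31 over 7 genes, Tmed10, a cargo receptor that tempers gamma-secretase, had a log2 fold of -0.48 (SE 0.18, edgeR adjusted p = 0.337).

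The adaptors that bind the shared tail were divided in sign. Over 8 genes the median log2 fold was 0.01, with 4 negative and 4 positive folds. Apbb1, which encodes Fe65, had 667.3 and 904.6 CPM in the cuprizone libraries, against 777.9 and 744.3 CPM in the mock libraries, a log2 fold of -0.02 (SE 0.18) that was 0.047 with library totals as the scaling. Apba1, which encodes the X11 adaptor of neurons, had 47.1 and 55.5 CPM in the cuprizone libraries, against 24.1 and 41.2 CPM in the mock libraries. Its log2 fold was 0.58 (SE 0.31, edgeR adjusted p = 0.515).

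Among 11 genes of sorting and endocytosis, 4 lay lower and 1 higher at an unadjusted p under 0.05, with a median of -0.46. Over all tested genes 7.04% lay lower and 5.73% higher at that threshold. Lrp1, a large endocytic receptor that binds APP and clears amyloid-beta and apolipoproteins, had 14.4 and 15.9 CPM in the cuprizone libraries, against 45.6 and 59.4 CPM in the mock libraries. The groups were far apart, with a log2 fold of -1.86 (SE 0.27), yet the edgeR adjusted p was 0.108 and passed in 3 of 12 alternatives. Clstn1, a cargo adaptor for axonal transport of APP, had 251.9 and 182.6 CPM in the cuprizone libraries, against 408.6 and 485.2 CPM in the mock libraries, a log2 fold of -1.11 (SE 0.20, edgeR adjusted p = 0.133).

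In the BRI2 family and the reticulons, 4 of 5 genes lay lower at an unadjusted p under 0.05, with a median of -0.64. Of all tested genes 7.04% lay lower at that threshold. Itm2b, which encodes BRI2, a membrane protein that binds APP and restrains its cleavage, had 1107 and 1136 CPM in the cuprizone libraries, against 1737 and 1596 CPM in the mock libraries. Its log2 fold was -0.64 (SE 0.12, edgeR adjusted p = 0.152), and that of Itm2a, a relative, was -1.46 (SE 0.42, edgeR adjusted p = 0.254). Itm2c, which encodes BRI3 and was singled out after its values were seen, had 714.4 and 718.9 CPM in the cuprizone libraries, against 1353 and 1380 CPM in the mock libraries. Its log2 fold was -1.001 (SE 0.12), with an edgeR adjusted p of 0.0713 and a limma-voom adjusted p of 0.022.

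Among other proteins cut by these enzymes, edgeR called 0, while DESeq2 called 4 BACE1 substrates and 2 gamma-secretase substrates lower. Over all tested genes DESeq2 called 2.88% lower, and 7.04% lay lower at an unadjusted p under 0.05 in edgeR. All 8 other BACE1 substrates had negative folds, with a median of -0.84 and 5 at an unadjusted p under 0.05. In 5 of the 8 both cuprizone libraries lay below both mock libraries, against 18.9% of all tested genes. With 1 library left out, the folds of Nrg1 and Cntn2 reached 0.62 and 0.19. L1cam, an axonal adhesion molecule, had 21.98 and 15.99 CPM in the cuprizone libraries, against 54.0 and 46.6 CPM in the mock libraries, a log2 fold of -1.48 (SE 0.27, edgeR adjusted p = 0.148). Sez6l2, a neuronal membrane protein, had a log2 fold of -0.48 (SE 0.17, edgeR adjusted p = 0.326). All 11 other gamma-secretase substrates had negative folds, with a median of -0.89 and 3 at an unadjusted p under 0.05. In 7 of the 11 both cuprizone libraries lay below both mock libraries. With 1 library left out, the folds of Erbb4, Ephb2 and Notch2 reached 2.14, 1.32 and 0.69, so their sign is uncertain. Cdh2, which encodes N-cadherin, had a log2 fold of -0.81 (SE 0.25, edgeR adjusted p = 0.272), and Dcc, an axon guidance receptor at 1.88 and 1.68 CPM in cuprizone and 6.97 and 13.6 CPM in mock libraries, had -2.60 (SE 0.58, edgeR adjusted p = 0.192).

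Of the amyloid-degrading proteases, 4 of 5 could be tested, and the groups overlapped in all 4. Ide, which encodes the insulin-degrading enzyme, had a log2 fold of 0.37 (SE 0.28) that was -0.051 without cuprizone replicate 2, and Ece1, an endothelin-converting enzyme, had -0.45 (SE 0.38). Of the relatives and partners of the prion protein, Ncam1, an adhesion molecule that binds it, had 188.0 and 248.0 CPM in the cuprizone libraries, against 401.5 and 484.4 CPM in the mock libraries, a log2 fold of -1.09 (SE 0.20, edgeR adjusted p = 0.134). Stip1, a co-chaperone and ligand of the prion protein, had a log2 fold of 0.04 (SE 0.14). Prnd, the neighbouring paralog of Prnp, had a count of 0 in all 4 libraries.

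Levels of several cell type marker lists differed between the groups, in directions that varied by list. The 12 astrocyte markers summed to 0.561% and 0.604% of counts in cuprizone and 0.943% and 0.903% in mock libraries, all 12 with negative folds and a median of -0.57. In 8 of the 12 both cuprizone libraries lay below both mock libraries, and 7 lay lower at an unadjusted p under 0.05 in edgeR. The 12 neuron markers, all counted in every library, summed to 1.70% and 1.69% in cuprizone and 1.48% and 1.54% in mock libraries. Among them were 6 negative and 6 positive folds, with 2 lower and 5 higher without overlap. At an unadjusted p under 0.05 in edgeR, 2 of these 12 lay lower and 0 higher. The 10 oligodendrocyte markers summed to 1.05% and 1.36% in cuprizone and 1.32% and 1.53% in mock libraries, so the sums overlapped. By gene, 8 had negative and 2 positive folds, with 5 lower and 1 higher without overlap. At an unadjusted p under 0.05 in edgeR, 4 of these 10 lay lower and 1 higher. The 5 oligodendrocyte precursor markers summed to 0.00838% and 0.0106% in cuprizone and 0.0142% and 0.0161% in mock libraries. Their median log2 fold was -1.09, with 4 of 5 lower and 1 higher without overlap. All 8 cerebellar granule cell markers were higher in both cuprizone libraries than in both mock libraries, with a median of 4.47 and 7 at an unadjusted p under 0.05. Their summed share was far larger in cuprizone replicate 2 (0.147%) than in replicate 1 (0.0303%). Gabra6, Cbln3 and Fat2 were at 0 in at least 1 library, so the size of their folds is uncertain. Over all tested genes, 18.9% lay lower and 25.7% higher without overlap. At an unadjusted p under 0.05 in edgeR, 7.04% lay lower and 5.73% higher. The 9 microglia markers held 0.00201% and 0.00179% in cuprizone and 0.00293% and 0.00424% in mock libraries, with Cx3cr1, C1qa and Aif1 at 0 in at least 1 library, and of the 6 endothelial markers Cdh5 was at 0 in all 4.

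The ratio of the summed precursor counts to the summed astrocyte marker counts was 0.273 and 0.236 in cuprizone and 0.239 and 0.294 in mock libraries, so on this scale the groups overlapped. The ratio to the neuron markers was 0.0903 and 0.0845 in cuprizone and 0.1525 and 0.172 in mock libraries, with no overlap. The ratio to the oligodendrocyte markers was 0.146 and 0.105 in cuprizone and 0.171 and 0.173 in mock libraries, also apart. Prnp against the astrocyte markers gave 0.228 and 0.217 in cuprizone and 0.185 and 0.1995 in mock libraries, which put the cuprizone libraries higher. Against the neuron markers Prnp gave 0.0754 and 0.0776 in cuprizone and 0.118 and 0.117 in mock libraries, which put them lower, and against the oligodendrocyte markers 0.122 and 0.0961 in cuprizone and 0.133 and 0.118 in mock libraries, with overlap. The part of these markers in the members' folds was not tested, and the ratios were computed after the marker shares had been seen.

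**Figure D4:**
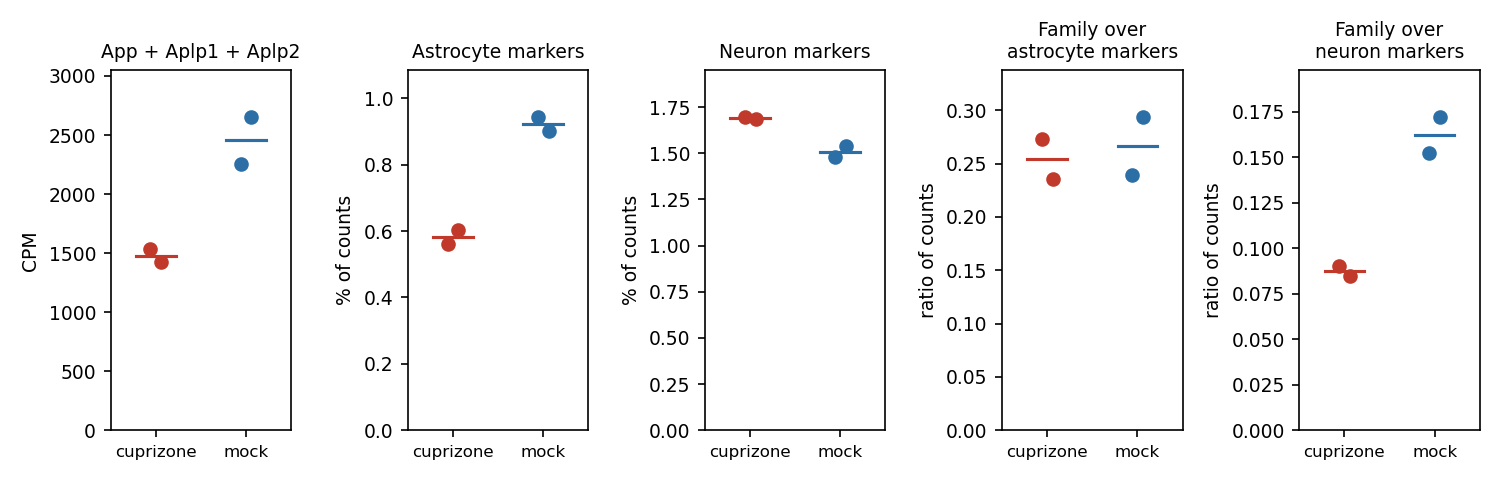
Summed CPM of App, Aplp1 and Aplp2, the shares of counts held by 12 astrocyte and 12 neuron markers, and the ratios of the precursors to each marker list, by library, with bars at group means and all axes from 0. The summed precursors and the summed astrocyte markers are both lower in the cuprizone libraries, the summed share of the neuron markers is higher, and of the values plotted only the ratio to astrocyte markers overlaps.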

How the data were processed

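The authors deposited raw counts per Ensembl gene, 1 table a library, made with FastQC 0.11.9, STAR 2.5.4b and featureCounts 1.6.0 on GRCm38, per the submitters' processing notes. Strand setting, multi-mapping rule and annotation release are not stated there or in the labels. RNA was poly(A)-selected and had an integrity number above 8, per the labels. Symbols were matched for 55144 of 55471 ids, and coordinates and lengths come from GENCODE M21.

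All genes entered 1 fit in R 4.3.3, by edgeR 4.0.16 (low counts removed by filterByExpr, TMM factors of 0.974 to 1.031, glmQLFit with robust estimation and the package's default dispersions, glmQLFTest, 2-sided), with Benjamini-Hochberg adjustment over 15816 genes and a threshold of 0.05. An SE was taken as the absolute log2 fold over the root of the F statistic. The code was tested on simulated data. CPM in the text is on library totals, folds use the TMM factors. Counts within a group differed by more than sampling noise (chi-square per degree of freedom of 56.5 for cuprizone and 35.1 for mock libraries). The limit that a count of 0 allows covers counting error only.

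The members and lists were chosen with earlier results of these data known. Named genes are the members, the most abundant gene and the one with the largest fold (from 5 CPM) of each list, any called gene and the 5 genes closest to App, of which 1 is not reported here. Planned protein comparisons were not made, because no protein table was used here, and coding length stands in for protein length. Alternatives were RLE and library-size scaling, filters, DESeq2 1.42.0, limma 3.58.1, bias-adjusted dispersions, a replicate block and leaving out each library.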

Additional observations from a re-analysis of the deposited data

How the results depend on the processing

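The count of members called moved from 0 to 5 with DESeq2 (App, Aplp1, Aplp2, Ncstn and Prnp), and to 1, Aplp2, with limma-voom, with bias-adjusted dispersions (adjusted p = 0.0499), with a mean of at least 1 CPM and with no filter on low counts; it stayed at 0 with the other alternatives, and from 0 to 0 when 1 library was left out. The count of other pathway genes called, 0 in the edgeR fit, was 12 with DESeq2, 6 with no filter and 2 with a mean of at least 1 CPM. It was 1 with limma-voom and with bias-adjusted dispersions. Calls over all genes moved as well. Of 15816 genes, the edgeR fit called 13, DESeq2 720, limma-voom 47 and bias-adjusted dispersions 51. With a mean of at least 1 CPM, 68 of 14031 genes were called, and with no filter 191 of 24824. The causes were not tested. In all 12 alternatives the same 5 members had an unadjusted p under 0.05. With 1 library left out, the members' median log2 fold ran from -0.77 without mock replicate 1 to -0.50 without cuprizone replicate 1, and with library totals it was -0.46. With TMM factors the gamma-secretase subunits averaged 162.9 CPM in mock libraries, against 158.8 on library totals.

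Some folds turned sign, among them those of Adam17 (-0.48, SE 1.13) and Ide (0.37, SE 0.28), which were not near 0. Over the fits with 1 library left out, Bace1 ran from -0.26 to 0.084 (0.075 without mock replicate 2), Adam17 from -3.70 to 0.43, Apbb1 from -0.27 to 0.19 (0.047 with library totals), Ide from -0.051 to 0.70 and Stip1 from -0.031 to 0.10. Library totals moved the median fold of all genes by 0.07. The replicate numbers were not shown to pair the libraries (correlation of deviations -0.012), and the replicate block called 0 members and 0 other pathway genes and left the members' median at -0.53. Aph1a and Psen2 had the fewest counts of the members, 115 to 388 in a library, and the largest SEs, 0.48 for Aph1a and 0.37 for Psen2.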
